A study of Mus musculus with 12 samples.

Results

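Bdh1, Oxct1 and Acat1 encode the enzymes that carry out the steps of ketone body use in mitochondria, and their RNA was followed in the myocardium of infarcted and sham-operated mice given vehicle or prednisone. These 3 genes were taken by symbol from the 33641 symbols of the deposited expression table, and all 3 were among the 13158 genes that reached 1 TPM (a library's share of transcripts, corrected for transcript length) in at least 3 libraries. The study held 12 male wild-type C57BL/6 mice of about 16 weeks of age, 3 in each of 4 groups, with 1 library per mouse. The groups were sham surgery with vehicle, sham surgery with prednisone, myocardial infarction (MI) with vehicle, and MI with prednisone. Prednisone, a synthetic glucocorticoid, was injected intraperitoneally at 1 mg/kg once weekly at lights-on for 6 weeks, beginning 2 weeks after surgery, and myocardium was collected 24 hours after the final dose. The vehicle mice are labelled as having had the same weekly course of vehicle. The labels say neither which region of the heart was sampled nor how large the infarcts were.

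Ketone bodies are made in the liver from fatty acids and are burned in other organs, with the heart among the most avid users. In the mitochondria of a heart muscle cell, 3-hydroxybutyrate dehydrogenase (Bdh1) oxidises 3-hydroxybutyrate to acetoacetate, and succinyl-CoA:3-oxoacid CoA-transferase (Oxct1, also called SCOT) moves a CoA group from succinyl-CoA onto acetoacetate. Acetyl-CoA acetyltransferase (Acat1) then splits acetoacetyl-CoA into acetyl-CoA, which enters the citrate cycle, and the same enzyme also completes the breakdown of isoleucine. Failing hearts are known to use more ketone bodies and to raise Bdh1.

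In GRCm38, Bdh1 (ENSMUSG00000046598.15) lies at chr16:31422280-31458901 on the plus strand with 6 transcripts in the table. Oxct1 (ENSMUSG00000022186.14) lies at chr15:4026383-4155344 on the plus strand with 5 transcripts, and Acat1 (ENSMUSG00000032047.5) at chr9:53580522-53610382 on the minus strand with 3. The transcript Oxct1-205 nearly disappeared from the MI prednisone libraries, and it differs inside the coding region from the main transcript Oxct1-201 by the absence of exon 16 of the 17 exons. That exon is at chr15:4147565-4147666 and has 102 bases, a multiple of 3. It is shown here 5′ to 3′ as it stands in the spliced transcript Oxct1-201, on the plus strand, in capitals. The lower-case letters are the last 20 bases of exon 15 and the first 20 bases of exon 17, so no intron is shown.
Oxct1 exon 16: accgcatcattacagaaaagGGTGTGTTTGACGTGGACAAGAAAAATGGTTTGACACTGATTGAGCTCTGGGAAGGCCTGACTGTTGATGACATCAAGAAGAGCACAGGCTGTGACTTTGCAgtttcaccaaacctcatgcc

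The promoters are shown because Bdh1 and Oxct1 RNA was called lower with prednisone in infarcted hearts, and prednisone acts through the glucocorticoid receptor, a DNA-binding factor. RefSeq promoter sequences (GRCm38.p6) were matched for 2 of the 3 genes, Bdh1 with 2 start sites and Oxct1 with 1. Each is printed on the plus strand, which is the coding strand of both genes, up to the base before the first annotated exon. The first Bdh1 window precedes the start of Bdh1-203 and of the retained-intron transcript Bdh1-205, and the second precedes the start of Bdh1-201. The coding transcripts Bdh1-202 and Bdh1-206 start further downstream, at chr16:31429299 and chr16:31436091. No window before either of these starts was available, so the sequence there was not searched.
Oxct1, chr15:4026178-4026382: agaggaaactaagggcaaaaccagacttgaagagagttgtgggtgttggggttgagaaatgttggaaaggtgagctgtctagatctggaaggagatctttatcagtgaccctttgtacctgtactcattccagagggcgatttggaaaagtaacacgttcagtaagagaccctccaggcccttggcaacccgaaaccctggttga
Bdh1, chr16:31428503-31428747: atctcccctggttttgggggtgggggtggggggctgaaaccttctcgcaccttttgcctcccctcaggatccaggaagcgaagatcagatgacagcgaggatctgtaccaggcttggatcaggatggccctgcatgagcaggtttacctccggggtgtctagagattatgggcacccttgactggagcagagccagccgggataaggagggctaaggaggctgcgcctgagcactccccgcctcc
Bdh1, chr16:31422047-31422279: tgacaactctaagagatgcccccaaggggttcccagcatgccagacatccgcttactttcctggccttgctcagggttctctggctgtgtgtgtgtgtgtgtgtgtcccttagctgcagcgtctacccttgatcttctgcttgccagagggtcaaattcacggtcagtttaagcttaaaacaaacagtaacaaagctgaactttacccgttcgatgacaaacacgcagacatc
No base is in capitals in these windows because none of the motifs searched on both strands was found, with 0 matches in each window. The motifs were the glucocorticoid receptor half-site AGAACA, the full palindromic glucocorticoid receptor site (which contains the half-site), the nuclear receptor half-site AGGTCA and the E-box CACGTG. Over the 250 bases upstream of all 32851 RefSeq start sites, the shares holding them were 16.1%, 0.0091%, 14% and 6.02%, in that order. The absence says only that these letters do not occur in these windows.

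Several properties of the libraries differed between groups, and their part in the results below was not tested. The median of all tested genes was 0.39 higher on the log2 scale in MI than in sham hearts under vehicle and 0.41 lower in MI prednisone than in MI vehicle hearts, so changes are also given after median-ratio rescaling, which brought both medians to within 0.02 of 0. MI vehicle replicate 3 stood apart, with 14307 genes at 1 TPM against 11690 to 12772 in the other 11 libraries and a rescaling factor of 1.65 against at most 1.14. In the MI prednisone libraries, a gene's deviation from its mean fell with transcript length (Spearman rho from -0.396 to -0.254 across genes, which are not independent), whereas in the other 9 libraries rho lay between -0.119 and 0.236. Mitochondrially encoded RNA took 21.6% to 42.0% of TPM. All 8 heart muscle markers, Myh6 and Tnnt2 among them, were detected in every library, with summed levels of 31934 to 38190 TPM in the sham groups, 23859 to 30707 in MI vehicle and 30757 to 33254 in MI prednisone. The 6 fibroblast markers summed to 881 to 1132 TPM in MI vehicle and 299 to 507 elsewhere. The 6 macrophage markers summed to 232 to 356 TPM in MI vehicle, 127 to 244 in MI prednisone and 126 to 178 in the sham groups. The 4 markers of atrial muscle summed to 1522 to 1940 TPM in MI prednisone and 127 to 1245 in the other groups. In whole tissue, fewer cells of a type and less RNA per cell cannot be told apart.

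Oxct1 was the most abundant of the 3 genes, with a mean of 324 TPM over the 12 libraries (rank 270 of 13158), followed by Acat1 with 154 TPM (rank 479) and Bdh1 with 58.7 TPM (rank 1139). They also differed in how far they moved. The highest library exceeded the lowest 4.32-fold for Bdh1, 2.60-fold for Oxct1 and 1.31-fold for Acat1.

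Bdh1, the first enzyme of the route, measured 34.7, 49.6 and 61.2 TPM in replicates 1, 2 and 3 of sham vehicle and 62.0, 64.0 and 53.0 TPM in sham prednisone. It measured 69.1, 117 and 85.3 TPM in MI vehicle and 30.7, 27.2 and 50.2 TPM in MI prednisone. All 3 MI vehicle hearts lay above the other 9, and the MI prednisone hearts lay below every sham prednisone heart while overlapping the sham vehicle hearts. The group means, in descending order, were 90.6 ± 24.6 in MI vehicle, 59.7 ± 5.87 in sham prednisone, 48.5 ± 13.3 in sham vehicle and 36.0 ± 12.4 TPM in MI prednisone (SD, n = 3 each). Sham prednisone and sham vehicle, neighbours in that order, did not differ beyond their spread, and neither did sham vehicle and MI prednisone, whose ranges overlapped.

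Oxct1, which commits acetoacetate to oxidation in the cell that takes it up, measured 301, 349 and 347 TPM in sham vehicle and 402, 392 and 432 TPM in sham prednisone. It measured 330.3, 395 and 312 TPM in MI vehicle and 201, 166 and 267 TPM in MI prednisone. The MI prednisone hearts were the 3 lowest of the 12 for Oxct1, and the sham prednisone hearts all exceeded the sham vehicle hearts. The means ran from 408 ± 20.8 in sham prednisone through 346 ± 43.7 in MI vehicle and 332 ± 27.1 in sham vehicle to 211 ± 51.1 TPM in MI prednisone (SD, n = 3 each). The MI vehicle and sham vehicle groups overlapped, as did MI vehicle and sham prednisone.

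Acat1, the thiolase at the end of the route, measured 158, 162 and 167 TPM in sham vehicle, 166, 161 and 179 TPM in sham prednisone, 148, 143 and 139 TPM in MI vehicle, and 136, 150 and 138 TPM in MI prednisone. Every infarcted heart was below every sham heart, and within each type of surgery the treatment groups overlapped. The means were 168 ± 8.99, 162 ± 4.27, 143 ± 4.70 and 141 ± 7.49 TPM for sham prednisone, sham vehicle, MI vehicle and MI prednisone (SD, n = 3 each).

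**Figure D1:**
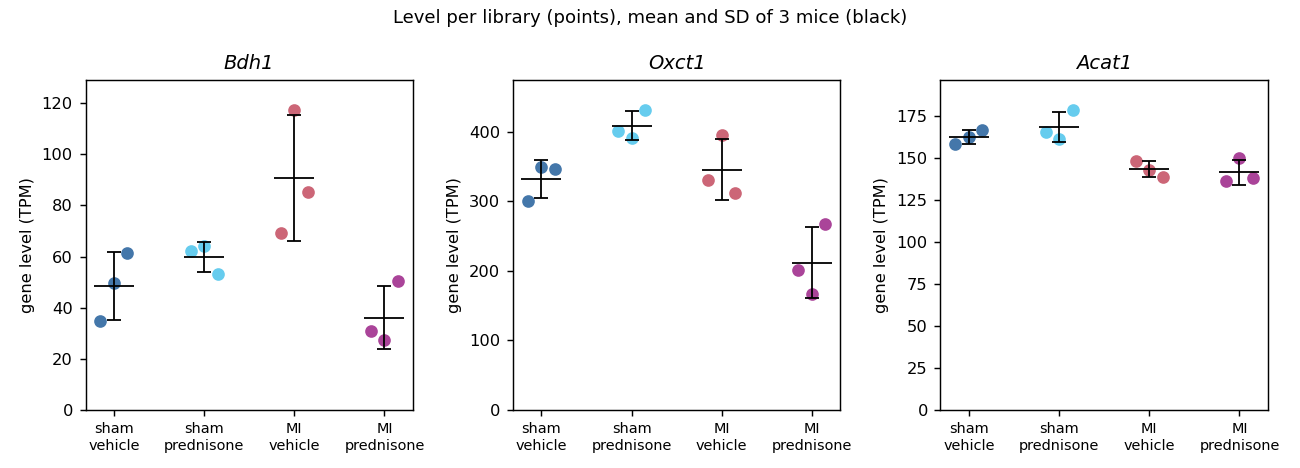
Level of Bdh1, Oxct1 and Acat1 in TPM (vertical axis, from 0) in each of the 12 libraries, by group, with the group mean and SD of 3 mice in black. Bdh1 was highest in MI vehicle (69.1 to 117 TPM), Oxct1 was lowest in MI prednisone (166 to 267 TPM), and Acat1 stayed between 136 and 179 TPM throughout.

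What infarction did to these genes in vehicle-treated hearts was asked first. Bdh1 rose by 0.89 on the log2(TPM + 1) scale (SE 0.26, 1.86-fold, limma adjusted p = 0.0446), and it was the only one of the 3 to pass the threshold of an adjusted p of 0.05. In this comparison 16% of all tested genes were called, 15.1% as higher and 0.904% as lower. The Bdh1 rise exceeded the median gene's shift of 0.39 by 0.50. After median-ratio rescaling it measured 0.46 and was no longer called (adjusted p = 0.366), when 7.44% of genes were called, 3.72% higher and 3.72% lower. The call was also lost when any 1 of 9 libraries was left out, namely any of the 3 sham vehicle, any of the 3 sham prednisone, MI vehicle 2, MI vehicle 3 or MI prednisone 1. Over the 12 such fits the change ran from 0.67 to 1.08, with adjusted p from 0.0186 to 0.151. Oxct1 was not called (0.05, SE 0.16, adjusted p = 0.793), and rescaling turned its sign (-0.39, adjusted p = 0.314). Acat1 measured -0.18 (SE 0.08, adjusted p = 0.116) and was called lower after rescaling (-0.62, adjusted p = 0.0437). The MI and sham ranges did not overlap for Bdh1 or for Acat1, which was true of 45% of all tested genes.

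The second comparison set MI against sham among prednisone-treated hearts. Oxct1 fell by 0.97 (SE 0.16, 1.96-fold, limma adjusted p = 0.00299), lower in all 3 MI hearts than in any sham heart. Of all tested genes, 16.8% were called and 14.1% were called lower. The fall of Oxct1 stood after median-ratio rescaling (-0.87, adjusted p = 0.0228), when 26% of genes were called, 11.7% higher and 14.3% lower. Bdh1 measured -0.76 (SE 0.26, adjusted p = 0.0739) and Acat1 -0.25 (SE 0.08, adjusted p = 0.0572), neither of them called. Leaving out MI prednisone 3, the library with the highest Bdh1 and Oxct1 of its group, gave -1.02 for Bdh1 (adjusted p = 0.0182). Acat1 passed the threshold without MI vehicle 3, which contributes only to the estimate of the spread (adjusted p = 0.0292). For all 3 genes the prednisone-treated MI and sham ranges were separate, as for 45.2% of all tested genes.

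In infarcted hearts, the first and the middle enzyme were called lower with prednisone than with vehicle and the last was not called. Bdh1 fell by 1.32 (SE 0.26, 2.5-fold, limma adjusted p = 0.00406) and Oxct1 fell by 0.73 (SE 0.16, 1.66-fold, adjusted p = 0.00579), both lower in 3 of 3 MI prednisone hearts than in any MI vehicle heart, a separation seen in 46.2% of all tested genes. Acat1 differed by -0.02 (95% interval -0.20 to 0.16, adjusted p = 0.868), with a positive sign after rescaling (0.44, adjusted p = 0.0623). The background was high here, since 37.4% of all tested genes were called, 34.9% lower and 2.5% higher. Relative to the median gene, Bdh1 stood at -0.92, Oxct1 at -0.32 and Acat1 at 0.39. Neither fall was called after median-ratio rescaling, with -0.87 for Bdh1 (adjusted p = 0.0560) and -0.27 for Oxct1 (adjusted p = 0.418), or after a correction for transcript length, with -0.995 (adjusted p = 0.0585) and -0.22 (adjusted p = 0.530), under which Acat1 was called higher (0.52, adjusted p = 0.0428). With that rescaling 28.8% of genes were called, 14.6% higher and 14.2% lower. The directions of both falls were the same in every fit that left out 1 mouse, and both stayed called in all 12.

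Prednisone in sham hearts moved none of the 3 genes past the threshold. The changes were 0.33 for Bdh1, 0.30 for Oxct1 and 0.05 for Acat1, each with a limma adjusted p of 1, against 0.114% of all tested genes called. The Oxct1 ranges were separate (301 to 349 against 392 to 432 TPM), which held for 18.2% of tested genes, and its unadjusted p was 0.0841. Acat1 changed sign after rescaling (-0.038).

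The test of whether the prednisone effect differed between infarcted and sham hearts was past the threshold for the same pair of genes. The difference of effects was -1.65 for Bdh1 (SE 0.37, limma adjusted p = 0.0148) and -1.03 for Oxct1 (SE 0.22, adjusted p = 0.0133), with 21.3% of all tested genes called and 20.7% in the lower direction. It was -0.07 for Acat1 (SE 0.12, adjusted p = 0.677), with a positive sign after rescaling (0.48). Rescaling gave -1.11 for Bdh1 (adjusted p = 0.122) and -0.48 for Oxct1 (adjusted p = 0.377), so neither difference stood on that scale, on which 10.1% of genes were called, 5.12% in the positive and 4.93% in the negative direction. The 5 comparisons share libraries and are not independent of each other.

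**Figure D2:**
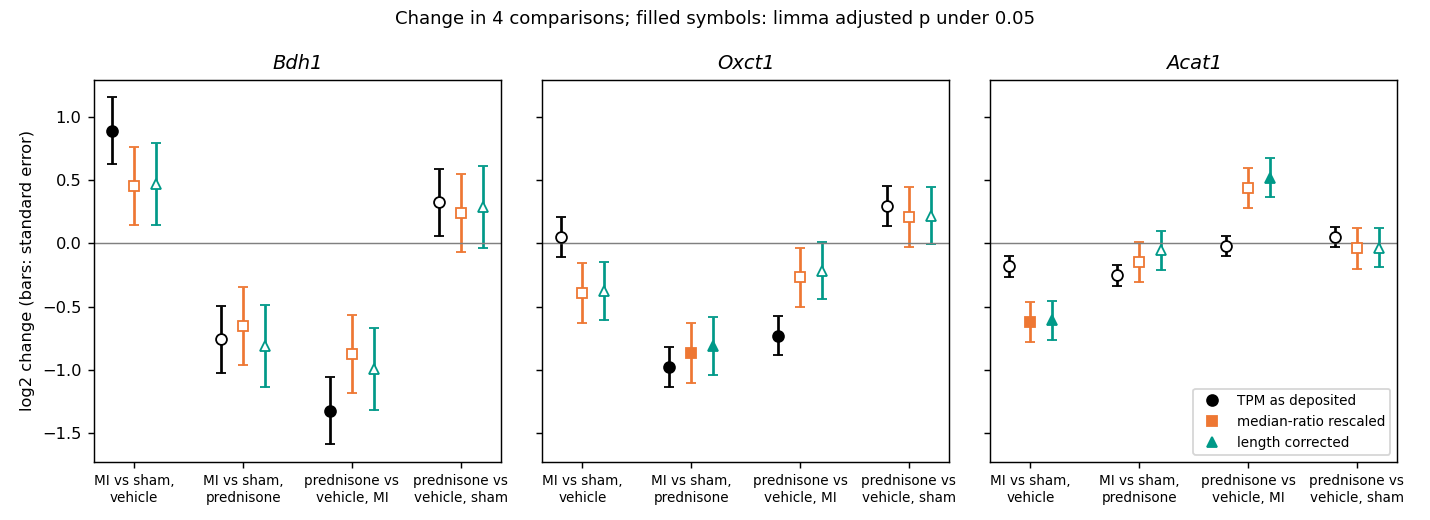
Log2 change of Bdh1, Oxct1 and Acat1 (vertical axis, bars show the standard error) in the 4 comparisons between groups, on TPM as deposited, after median-ratio rescaling and after a transcript-length correction, with filled symbols for a limma adjusted p under 0.05. The fall of Oxct1 for MI against sham under prednisone was filled on all 3 scales, while for prednisone in MI hearts the Acat1 symbols stood on both sides of 0 (-0.02, 0.44 and 0.52).

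Because all genes of a library share its scaling, the ratio of one gene to another within a library does not depend on that scaling. A trend with transcript length, such as that of the MI prednisone libraries, does not cancel in a ratio, and its part here was not tested. The ratio of Bdh1 to Acat1 was 0.219, 0.305 and 0.367 under sham vehicle, 0.375, 0.397 and 0.297 under sham prednisone, 0.467, 0.823 and 0.616 in MI vehicle, and 0.226, 0.181 and 0.364 in MI prednisone. MI vehicle was above all other hearts. Its geometric mean was 2.13-fold higher than in sham vehicle and 2.51-fold higher than in MI prednisone. The ratio of Oxct1 to Acat1 was 1.90, 2.15 and 2.08 under sham vehicle, 2.43, 2.43 and 2.42 under sham prednisone, 2.23, 2.77 and 2.25 in MI vehicle, and 1.48, 1.11 and 1.93 in MI prednisone. Of the MI prednisone hearts, 2 were below all others and replicate 3 overlapped sham vehicle. The geometric mean was 1.64-fold lower than in MI vehicle and 1.65-fold lower than in sham prednisone, with no overlap in either case. The ratio of Bdh1 to Oxct1 was also highest in MI vehicle, at 0.260 ± 0.0456, against 0.168 ± 0.0182 in MI prednisone, 0.147 in sham prednisone and 0.145 in sham vehicle (n = 3 each). Ranges were separate in 8 of the 12 contrasts of a ratio between groups. How often ratios of other gene pairs separate was not computed, so this count has no background to be judged by. Of single tested genes, 18.2% (prednisone in sham hearts) to 46.2% (prednisone in MI hearts) had separate ranges, depending on the comparison. With 3 against 3 mice the exact two-sided permutation p cannot go below 0.1, which these 8 contrasts reached (0.15 after Benjamini-Hochberg adjustment over 12 tests), so none passed the threshold. A ratio does not tell which of its 2 genes differed.

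**Figure D3:**
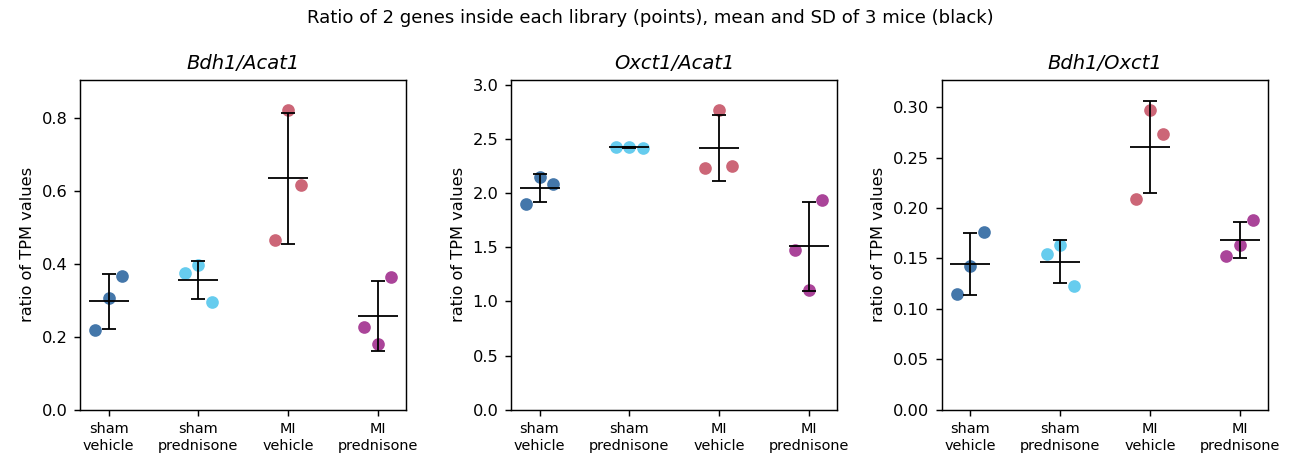
Ratio of TPM values of 2 genes inside each library (vertical axis, no unit), by group, with mean and SD of 3 mice. The Bdh1/Acat1 ratio was 0.467 to 0.823 in MI vehicle and at most 0.397 in every other heart, and the Oxct1/Acat1 ratio was 1.11 to 1.93 in MI prednisone.

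The transcripts that made up each gene were not affected alike. Over the 12 libraries, Oxct1-201 held 78.0% of Oxct1 TPM, Oxct1-205 9.74%, and the shorter noncoding transcripts Oxct1-202 and Oxct1-203 6.72% and 5.49%. Bdh1 was spread over Bdh1-202 (32.5%), Bdh1-203 (32.4%), the 438-base retained-intron transcript Bdh1-205 (27.3%) and the coding Bdh1-206 (6.24%). Acat1-201 held 95.1% of Acat1. TPM for overlapping transcripts is an estimate that divides shared reads between them.

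Oxct1-205, the form without exon 16, measured 23.7, 41.4 and 36.4 TPM in sham vehicle, 54.5, 50.3 and 64.8 TPM in sham prednisone, 23.1, 43.4 and 39.5 TPM in MI vehicle, and 0.480, 0.182 and 1.37 TPM in MI prednisone. All 3 MI prednisone hearts were far below the other 9. Its share of Oxct1 was 10.2% in MI vehicle and 0.287% in MI prednisone. Against MI vehicle it fell by 4.45 (limma over 27769 transcripts, adjusted p = 1.11e-05), when 27.1% of transcripts were called lower and 33% were called in all, and it had the 14th lowest change. Oxct1-205 also ends before Oxct1-201 at the 3′ end and begins 301 bases further downstream, so exon 16 is not the only difference between these models.

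Oxct1-203, a noncoding transcript within the gene, was listed at 0 in each of the 3 MI prednisone hearts after 12.7, 21 and 23.6 TPM in MI vehicle and 10.7 to 43.6 TPM in the sham hearts. Of 4048 transcripts with at least 10 TPM in each of the other 9 libraries, 2 (0.0494%) had a value of 0 in each MI prednisone library, and Oxct1-203 was one of them. The other was Gm5537-201, a processed pseudogene, named after its values were seen. No transcript of 3472 was listed at 0 in the same way in all 3 MI vehicle libraries. Oxct1-202 fell by 2.64 between MI vehicle and MI prednisone (adjusted p = 0.0128), as a noncoding processed transcript, a type of which 14.4% were called lower there.

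Oxct1-201, the transcript that encodes the full enzyme, measured 276, 298 and 226 TPM in MI vehicle and 196, 166 and 253 TPM in MI prednisone, and these ranges overlapped. Its change was -0.39 (adjusted p = 0.0721), so the call on the gene's fall did not extend to its main transcript in this comparison. Against sham prednisone, at 273, 286 and 291 TPM, Oxct1-201 fell by 0.48 in MI prednisone (adjusted p = 0.0422, with 22.3% of transcripts called and 15.6% called lower). The difference between the prednisone effects in MI and sham hearts was -0.53 for Oxct1-201 (adjusted p = 0.107) and -5.20 for Oxct1-205 (adjusted p = 0.000123), against 18.7% of transcripts called.

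Among the Bdh1 transcripts, Bdh1-205 measured 19.5, 36.8 and 29.0 TPM in MI vehicle and 0, 0.780 and 7.29 TPM in MI prednisone, and fell by 3.54 (limma adjusted p = 0.00166). Among retained-intron transcripts in general, 9.49% were called lower in that comparison, against 32.4% of protein-coding ones. Bdh1-202, which encodes the enzyme, measured 23.3, 38.3 and 29.7 TPM in MI vehicle and 6.08, 4.78 and 20.8 TPM in MI prednisone, and fell by 1.68 (adjusted p = 0.00927). Bdh1-206 was listed at 0 in all 3 MI prednisone hearts and in sham vehicle 1, and measured 2.11 to 10.5 TPM in the other 8 libraries. Bdh1-203 shares its coding exons with Bdh1-202 but has its own first exon and a longer 3′ end. It measured 20.4, 28.0 and 24.2 TPM in MI vehicle and 20.3, 21.6 and 22.2 TPM in MI prednisone, and was not called (-0.16, adjusted p = 0.606). Its share of Bdh1 was 27.2% in MI vehicle and 63.3% in MI prednisone. Bdh1-203 was the Bdh1 transcript called higher in MI than in sham under vehicle (0.96, adjusted p = 0.0482), when 2.84% of transcripts were called and 2.66% were called higher.

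Summed over protein-coding transcripts alone, Bdh1 measured 62.0 ± 16.1 TPM in MI vehicle and 33.4 ± 8.59 in MI prednisone, and Oxct1 302 ± 38.4 and 206 ± 44.9 TPM (SD, n = 3 each). The calls of both genes were unchanged under this sum, a setting chosen after the data were seen, and Acat1 became called lower for MI against sham under prednisone (-0.46, adjusted p = 0.0119). Acat1-201 measured 141 ± 6.36 TPM in MI vehicle and 120 ± 16.3 in MI prednisone (-0.24, adjusted p = 0.109). The short noncoding Acat1-203, which held 4.88% of Acat1 and was picked out after its values were seen, measured 28.8 and 35.9 TPM in MI prednisone 1 and 2 and 0 in replicate 3, against at most 7.05 TPM in the other groups.

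**Figure D4:**
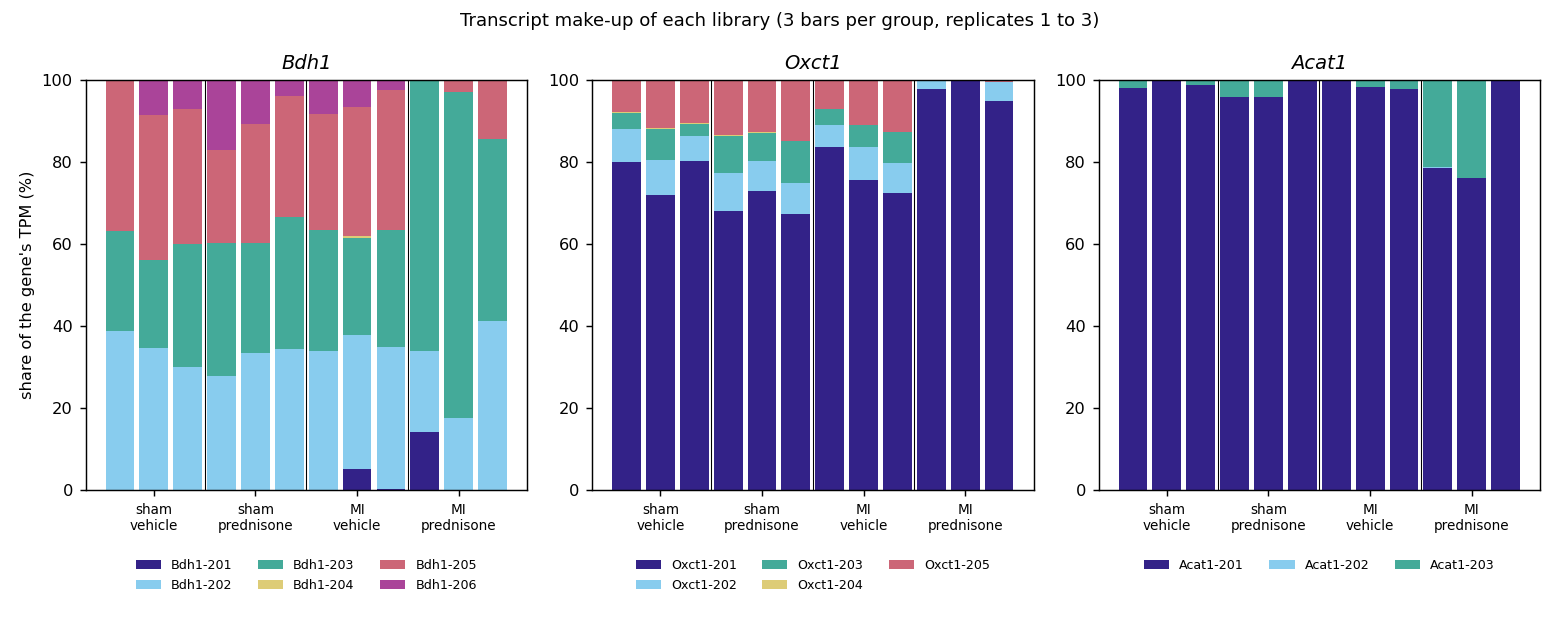
Share of each gene's TPM (percent, vertical axis) assigned to its annotated transcripts in each library, with 3 bars per group for replicates 1 to 3. Oxct1-205 took 7.01% to 15% of Oxct1 in the first 9 libraries and at most 0.513% in MI prednisone, and Bdh1-205 took 22.8% to 36.9% of Bdh1 in those 9 libraries and at most 14.5% in MI prednisone.

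The genes with the profile most like each enzyme over the 12 libraries were found by the root mean square difference of centred log2 profiles among the 8116 tested genes averaging 5 TPM or more. For Bdh1 they were Clic5 (0.21), Prkar1a (0.21), a regulatory subunit of protein kinase A, and Ccnd2 (0.23), a cyclin. Oxct1 ranked only 863rd in likeness to Bdh1, and Acat1 5069th. For Oxct1 they were Rragd (0.07), a Rag GTPase, Kif13a (0.07), a kinesin, and Ptgr2 (0.08), a prostaglandin reductase. Ptgr2 went from 90.5 TPM in MI vehicle to 53.9 TPM in MI prednisone. For Acat1 they were Bckdha (0.04), a subunit of the branched-chain ketoacid dehydrogenase, Acads (0.05), the short-chain acyl-CoA dehydrogenase, and BC004004 (0.05). The 3 named genes were the same after median-ratio rescaling. These are descriptions over libraries that share groups and scaling.

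Of the 5 genes for ketone body and monocarboxylate transport, 1 was called in 1 comparison before rescaling. In that comparison, MI against sham under vehicle, 15.1% of all tested genes were called higher. Slc16a3, the carrier MCT4, rose by 1.09 in MI against sham under vehicle (adjusted p = 0.0393) from a low level, with 2.12, 6.42 and 3.82 TPM in MI vehicle and 0.956 to 1.93 TPM in sham vehicle, and was not called after rescaling (adjusted p = 0.106). The Slc16a3 call also ended without any 1 of 8 libraries, MI vehicle 2 and 3 included (adjusted p up to 0.142). Slc16a1 (MCT1, the main importer of ketone bodies into heart muscle cells) measured 41.0 to 49.1 TPM in MI vehicle and 27.5 to 39.7 TPM in MI prednisone. These ranges did not overlap, as for 46.2% of all tested genes. Slc16a1 was not called there (-0.37, limma adjusted p = 0.0749), and the median of all tested genes was -0.41. Bsg, the chaperone that brings these carriers to the membrane, measured 791 to 964 TPM in MI vehicle and 955 to 1055 TPM in MI prednisone (0.24, adjusted p = 0.0814). After rescaling Bsg was called higher for prednisone in MI hearts (0.70, limma adjusted p = 0.0159), and Slc16a7, the carrier MCT2, was called lower for MI against sham under prednisone (-0.78, adjusted p = 0.0359). On that scale 14.6% of all tested genes were called higher in the former comparison and 14.3% lower in the latter. Slc16a7 levels were low, with 1.13 to 1.96 TPM in MI prednisone and 2.73 to 5.08 TPM in sham prednisone. Before rescaling Slc16a7 was not called there (limma adjusted p = 0.0621).

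Among 11 other enzymes and receptors of ketone metabolism, 6 passed the filter on low values. Oxct2a, the testis form of the transferase, was at or near 0 in every library. Hmgcs1, an enzyme of cholesterol synthesis, fell by 0.71 for prednisone against vehicle in MI hearts (limma adjusted p = 0.00720), also after rescaling (-0.29, adjusted p = 0.0400). Of all tested genes, 34.9% were called lower there before rescaling and 14.2% after it. Hmgcs1 rose by 0.57 in MI against sham under vehicle (adjusted p = 0.0411), when 15.1% of all tested genes were called higher. That call was lost after rescaling (0.16, adjusted p = 0.304) or without any 1 of 9 libraries (adjusted p up to 0.147). The liver markers Alb, Apoa1 and Ttr summed to 0.222 to 8.55 TPM in the 12 libraries.

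The 7 enzymes around succinyl-CoA and citrate supply the CoA donor of Oxct1 and take up the acetyl-CoA. None was called for MI against sham under vehicle before rescaling, and 5 fell for MI against sham under prednisone, when 14.1% of all tested genes were called lower. These were Dld (-0.76), Ogdh (-0.75), Suclg2 (-0.75), Sucla2 (-0.59) and Cs (-0.48), all with limma adjusted p under the threshold, and 3 stayed called lower after median-ratio rescaling, Dld, Ogdh and Suclg2. On that scale 14.3% of all tested genes were called lower. The same 3 genes fell for prednisone against vehicle in MI hearts, by 0.51, 0.47 and 0.47, when 34.9% of all tested genes were called lower. After rescaling none of the 7 was called lower and Suclg1 was called higher (0.68, limma adjusted p = 0.00606), against 14.2% of all tested genes lower and 14.6% higher. Suclg1 was also called lower for MI against sham under vehicle after rescaling (-0.67, adjusted p = 0.0288), against 3.72% of all tested genes. Ogdh, the rate-setting subunit that makes succinyl-CoA, averaged 443 ± 26.8 TPM in MI vehicle and 323 ± 67.4 TPM in MI prednisone (SD, n = 3 each). Without MI prednisone 1 or 2 the Ogdh call in MI hearts was lost, and over all such fits its change lay between -0.64 and -0.37.

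The 11 enzymes of branched-chain amino acid breakdown, the other route in which Acat1 works, showed 4 falls for MI against sham under prednisone, when 14.1% of all tested genes were called lower. These were Acadsb (-1.13), Dbt (-0.91), Ivd (-0.88) and Echs1 (-0.35), and the first 3 stayed called after rescaling, when 14.3% of all tested genes were called lower. Acadsb, which acts on the isoleucine branch, measured 90.1, 84.3 and 91.7 TPM in sham prednisone and 35.3, 34.0 and 52.7 TPM in MI prednisone. By its most abundant transcript alone, Acadsb measured -0.20 in that comparison (adjusted p = 0.187) and was not called. For prednisone against vehicle in MI hearts, 3 fell, Acadsb (-0.81), Dbt (-0.67) and Ivd (-0.43), and 1 rose, Bckdhb (0.52), against 34.9% of all tested genes called lower and 2.5% higher. None of those 3 falls was called after rescaling, which turned the sign of Ivd (0.026) and left 4 of the 11 called higher, against 14.6% of all tested genes. The Ivd call was lost without MI vehicle 1, MI prednisone 1 or MI prednisone 2, and the Bckdhb call without MI vehicle 2, MI prednisone 1 or MI prednisone 2, with adjusted p up to 0.101 and 0.0696. In that comparison Bckdhb took the opposite sign when counted by its most abundant transcript (-1.46, adjusted p = 0.164). Bckdhb was the gene of this group called lower for MI against sham under vehicle (-0.51, adjusted p = 0.0418), against 0.904% of all tested genes. After rescaling 6 of the 11 were called lower there, Bckdhb, Echs1, Mccc1, Mccc2, Hsd17b10 and Bcat2 (-0.94 to -0.48), against 3.72% of all tested genes. The Echs1 call was lost without any 1 of 7 libraries, and that of Bckdhb under vehicle without any 1 of 9, MI vehicle 2 and 3 included.

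Among the 6 thiolases, relatives of Acat1 in reaction, Acaa2 (-0.62, limma adjusted p = 0.0108) and Hadhb (-0.37, adjusted p = 0.0455), both of fatty acid oxidation, were lower in MI than sham under vehicle, and stayed called after rescaling. Of all tested genes, 0.904% were called lower there before rescaling and 3.72% after it. Hadhb was also lower in MI under prednisone (-0.45, adjusted p = 0.0193), when 14.1% of all tested genes were called lower. After rescaling this fall of Hadhb was not called (adjusted p = 0.256). No thiolase was called for prednisone in MI hearts before rescaling, when 37.4% of all tested genes were called. After rescaling 3 were called higher, Acaa2, Acaa1a and Scp2, against 14.6% of all tested genes. Leaving out any 1 of 10 libraries ended the Hadhb call under vehicle, any 1 of 5 ended its call under prednisone, and leaving out sham vehicle 1 or 3 ended that of Acaa2.

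Of 4 regulators, the 3 named Ppara, Ppargc1a and Nr3c1 fell with infarction under prednisone and with prednisone in infarcted hearts. Of all tested genes, 14.1% and 34.9% were called lower in these comparisons before rescaling, and 14.3% and 14.2% after it. Esrra was not called before rescaling and was called higher after it for prednisone in MI hearts (0.54, limma adjusted p = 0.0274), against 14.6% of all tested genes. Ppara, the nuclear receptor that drives genes of fatty acid and ketone metabolism, measured 13.9, 15.3 and 15 TPM in sham prednisone, 9.87, 13.2 and 11.5 TPM in MI vehicle and 2.25, 2.85 and 5.38 TPM in MI prednisone. It fell by 1.87 against sham prednisone (adjusted p = 0.00117) and by 1.53 against MI vehicle (adjusted p = 0.00105), and stayed called in both after rescaling (-1.79 and -1.13). Nr3c1, the glucocorticoid receptor itself, averaged 22.2 ± 6.37 TPM in MI vehicle and 8.76 ± 1.47 TPM in MI prednisone and fell by 1.22 (adjusted p = 0.00141, and -0.79 after rescaling, adjusted p = 0.00244). By its most abundant transcript alone, Nr3c1 measured -0.18 (adjusted p = 0.556) and was not called. Ppargc1a, a coactivator of mitochondrial genes, fell by 0.98 in MI hearts (adjusted p = 0.00338), but not after rescaling (-0.57, adjusted p = 0.113). Over all settings other than leaving out a mouse, its change there ran from -1.09 to -0.065, with limma adjusted p up to 0.810. No gene of any of these lists was called for prednisone in sham hearts.

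**Figure D5:**
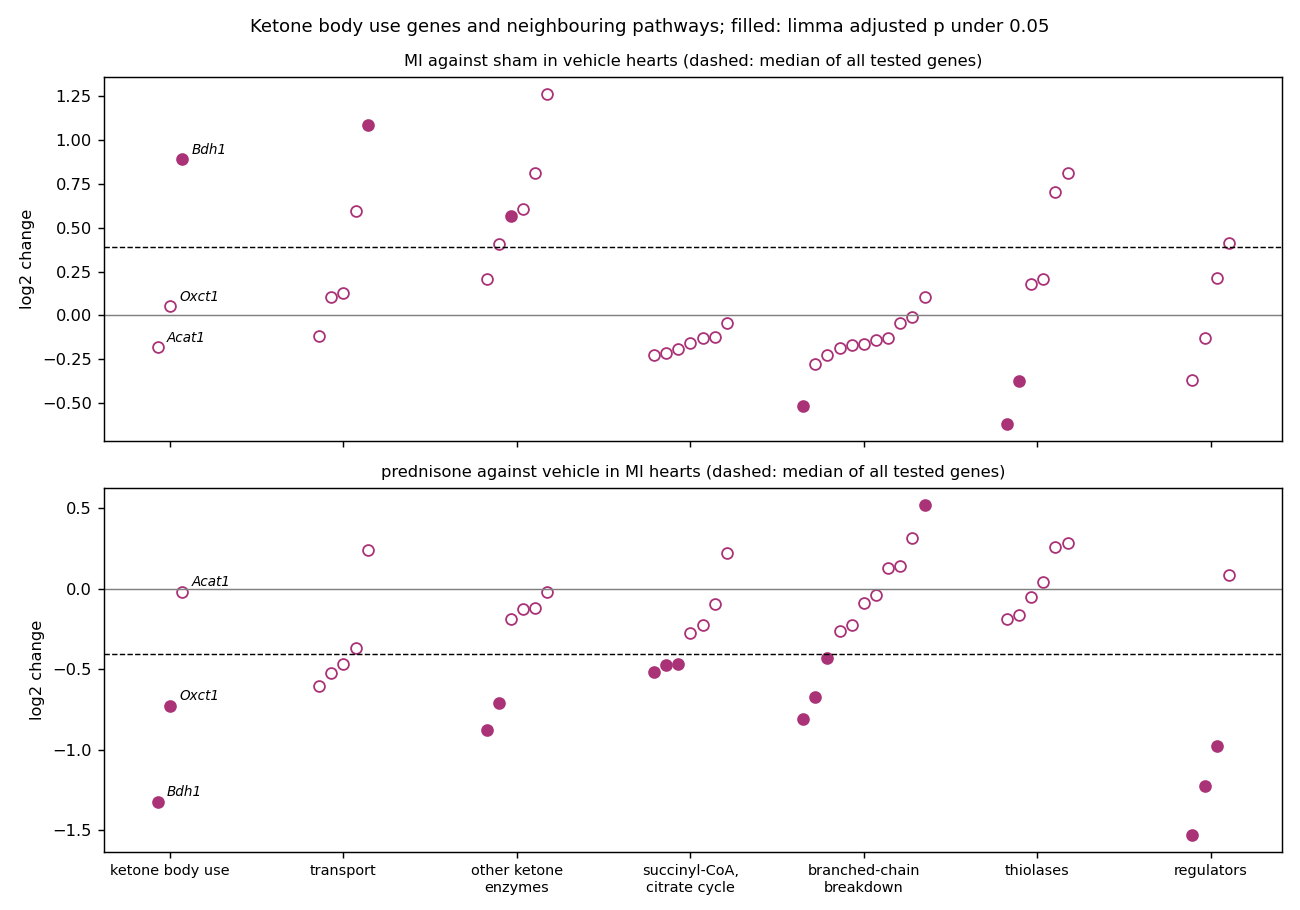
Log2 change (vertical axis) of each tested gene of the ketone gene lists for MI against sham under vehicle (upper panel) and prednisone against vehicle in MI hearts (lower panel), before rescaling, with filled circles for a limma adjusted p under 0.05 and a dashed line at the median of all tested genes (0.39 and -0.41). The lowest filled circle among the regulators in the lower panel is Ppara (-1.53), and all 7 succinyl-CoA and citrate cycle genes lay below 0 in the upper panel.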

How the data were processed

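RNA from 12 libraries (4 groups of 3 mice, assigned from the titles) was prepared as stranded mRNA libraries, per the labels' protocols. The authors deposited TPM values for 105129 transcripts in 1 table, in which each library sums to 1000000. The submitters' processing notes name Trimmomatic, HISAT2 and kallisto and the build mm10, and the annotation release is not given in the sources used here. TPM carries no depth, so no read number could be attached to a library and precision rests on the spread between mice.

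Rows were summed to genes by symbol, and those reaching 1 TPM in 3 or more libraries were kept (13158, or 27769 when transcripts were tested). Limma 3.58.1 in R 4.3.3 was fitted to log2(TPM + 1) with an intensity trend and a mean for each of the 4 groups. Benjamini-Hochberg adjustment ran over all genes of a comparison, with calls at an adjusted p under 0.05. A pseudocount of 1 understates the change of low genes. The procedure was tested on simulated data. Median-ratio rescaling divided each library by its median ratio to the gene geometric means. The length correction subtracted a loess curve (span 0.5) of each library's deviation against transcript length, for the 11894 genes with a length. Coordinates came from GENCODE M21, in which 94.7% of rows were found by versioned identifier, 97.9% of these with the same symbol.

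The genes, the lists around them and the tests were chosen with earlier results of these data known. Named genes were the 3 enzymes, called genes of each list (up to 4 per list and comparison by size of change), the 3 genes most like each enzyme, and transcripts holding at least 5% of a gene. Cs, Gm5537-201, Acat1-203 and other names outside this rule were chosen after their values were seen. The results of 2 listed genes are not reported here. Alternatives were median-ratio rescaling, removal of 13 mitochondrial genes and 7 nuclear copies, no filter, a pseudocount of 0.1, no trend, the most abundant transcript, the replicate block, fitting only the 2 groups compared, leaving out each mouse, and the length correction with or without the block. Summing protein-coding transcripts only was added after the data were seen.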

Additional observations from a re-analysis of the deposited data

Results flagged for a closer look

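The effect of prednisone differed between infarcted and sham hearts for 2 of the 3 ketone genes by the interaction test in limma. The difference of effects was -1.65 for Bdh1 (adjusted p = 0.0148) and -1.03 for Oxct1 (adjusted p = 0.0133), against 21.3% of all tested genes called. Bdh1 was lower with prednisone in 3 of 3 infarcted hearts than in any infarcted vehicle heart, and Oxct1 likewise, a separation that 46.2% of all tested genes showed. Neither difference was called after median-ratio rescaling, which gave -1.11 and -0.48.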

How the results depend on the processing

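Over the 162 values of the 3 enzymes under settings other than leaving out a mouse, 115 kept their direction and side of the threshold, 26 lost their call, 6 gained one and 15 changed sign. The cause of these changes was not tested. For MI against sham under vehicle, Bdh1 lost its call at 0.46 (median-ratio rescaling), 0.69 (mitochondrial RNA and copies removed), 0.84 (most abundant transcript), 0.47 (length correction, with or without the block) and 0.89 without a filter, without the trend, with only the 2 groups or with the replicate block. That transcript was Bdh1-202 (32.5% of Bdh1), nearly tied with Bdh1-203 (32.4%). Bdh1-203 was called in this comparison (0.96, limma adjusted p = 0.0482) and not for prednisone in MI hearts (-0.16, adjusted p = 0.606). Oxct1 changed sign at -0.39 (rescaling), -0.38 (length correction, with or without the block) and -0.16 (mitochondrial RNA removed), and Acat1 became called at -0.62 (rescaling) and -0.61 (length correction). The genes called went from 2100 to 979, 1212, 1068 (no filter), 789 (transcripts), 1056 (replicate block), 2 (only the 2 groups), 613 (length correction) and 69 (that with the block). Here and below, a count marked transcripts is of calls among all 27769 tested transcripts, and is not comparable with a count among 13158 genes.

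For MI against sham under prednisone, Oxct1 lost its call only under the length correction with the replicate block (-0.81). Acat1 became called at -0.46 (most abundant transcript, or protein-coding only) and -0.25 (no filter), and Bdh1 at -0.76 with only the 2 groups. The genes called went from 2213 to 3417 (rescaling), 6204 (transcripts) and 950 (length correction with the block). For prednisone in MI hearts, Bdh1 lost its call at -0.87 (rescaling) and -0.995 (length correction, with or without the block). Oxct1 lost it at -0.27 (rescaling), -0.22 (length correction, with or without the block), -0.39 (main transcript) and -0.73 (only the 2 groups). Acat1 changed sign at 0.44, 0.52 (length correction, with or without the block) and 0.059 (mitochondrial RNA removed). The genes called went from 4917 (37.4%) to 9169 (transcripts, 33% of those tested), 808 (only the 2 groups), 1983 and 1340 (length correction without and with the block). For prednisone in sham hearts, Acat1 turned to -0.038 (rescaling) and -0.034 (length correction, with or without the block), and 15 calls became 7 with the replicate block and 6 with the length correction and the block.

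In the interaction, Bdh1 lost its call at -1.11 (rescaling) and -1.28 (length correction, with or without the block). Oxct1 lost it at -0.48, -0.43 (length correction, with or without the block), -0.90 (mitochondrial RNA removed) and -0.53 (main transcript). Acat1 turned to 0.48, 0.55 (length correction, with or without the block) and 0.053 (mitochondrial RNA removed). The genes called went from 2797 to 1323, 5185 (transcripts), 250 and 97 (length correction without and with the block). Of 407 values of listed genes, 268 were unchanged in call and direction, 129 lost the call and 10 changed sign: Ivd in MI hearts (0.026 with rescaling, 0.071 with the length correction, with or without the block), Suclg2 in the interaction (0.0060), Ogdh in MI hearts (0.13) and in the interaction (0.071) with the length correction, with or without the block, and Bckdhb in MI hearts (-1.46 by its most abundant transcript, -0.053 for protein-coding transcripts).

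Leaving out 1 mouse at a time, Bdh1 under vehicle ranged from 0.67 to 1.08, Oxct1 under vehicle from -0.047 to 0.12, Bdh1 and Acat1 for MI under prednisone from -1.02 to -0.59 and from -0.30 to -0.21, and Acat1 for prednisone in MI hearts from -0.062 to 0.0078. The genes called ranged from 120 to 5631 and from 1027 to 3971 for MI under vehicle and prednisone, from 3245 to 6274 and from 4 to 18 for prednisone in MI and sham hearts, and from 1111 to 4520 in the interaction. The correlation of same-numbered deviations averaged -0.373, -0.0500, -0.250 and 0.00280 over the 4 comparisons between groups. No pairing of mice by replicate number showed in it, and with 3 mice per group these values cannot exclude one. No depth was known, so the limits of detection could not be set, and with 3 mice per group the spread rests on few animals.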
